A study of Mus musculus with 16 samples.

Results

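The mitochondrial genome encodes 13 mRNAs, 2 rRNAs and 22 tRNAs, and their RNA was measured here in the CA1 subfield of the mouse hippocampus. The members are all 37 symbols in the deposited tables that begin with mt-, sorted by the biotype given there, out of 46403 gene symbols quantified. No member passed the test between Fmr1-KO and WT mice, although all 13 mRNAs had a lower fitted level in Fmr1-KO mice in edgeR. On log2(TPM + 1) all 13 had a higher one, where the median over all genes was also above 0. All 13 had their lowest TPM in the same WT library. The tilt in edgeR was seen in animals whose label carries the letter B (median log2 fold change -0.55). It was not seen in those with the letter D (median 0.04). This difference between letters passed the adjusted test for no gene. All 13 mRNAs and both rRNAs had enough counts for the test, but only mt-Tp did among the tRNAs, so 16 members were tested.

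The mitochondrial DNA is a small circle that is transcribed from both strands into long precursor RNAs. The tRNAs that punctuate them are cut out, which releases the rRNAs and mRNAs between them, so genes of a precursor are transcribed together and then differ through processing and decay. All 13 proteins are core subunits of the respiratory chain and of ATP synthase, made on mitochondrial ribosomes and joined by subunits from nuclear genes. In CA1 pyramidal neurons these complexes supply ATP for ion pumping and synaptic transmission.

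The study compared the CA1 transcriptome of 8 Fmr1-KO mice with that of 8 WT mice (C57BL/6 per the labels). The Fmr1 product, FMRP, binds mRNAs and regulates their translation. All 16 mice served as yoked controls in active place avoidance, where such animals receive shocks on a partner's schedule and so have no way to learn to avoid them. The labels give neither age nor sex. They give each animal a number followed by the letter B or D, with no word on what the letters stand for, and each letter holds 4 Fmr1-KO and 4 WT mice. The p-values measure the spread between these 16 libraries, and the labels give each library its own animal.

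Total estimated counts ranged from 1480966 to 2979481 in Fmr1-KO libraries and from 515103 to 3275003 in WT libraries. WT replicates 3 and 6, both with the letter B, stood apart, with 878484 and 515103 counts, of which 80.7% and 58.4% lay on protein-coding transcripts, against 87.6% to 91.8% in the other 14 libraries. Values without both are given beside many of the results. WT replicate 5, which carries the letter D, was kept in those values. It had 1.86% of its counts on Rn18s-rs5, an 18S rRNA sequence, against 0.955% and 3.5% in WT replicates 3 and 6. Fmr1 stood at 8.44 to 32.0 CPM in Fmr1-KO libraries and at 39.6 to 99.7 CPM in WT libraries, so no library went against its genotype label. CPM are counts scaled by library total and TMM factor to a common library size. The CA1 pyramidal markers summed to 6342 to 7436 CPM in Fmr1-KO libraries and 6117 to 8538 CPM in WT libraries, with all 8 of them detected.

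Mitochondrial mRNAs took 1.66% to 2.66% of a library's counts in Fmr1-KO mice and 1.29% to 3.80% in WT mice. The share averaged 2.08% ± 0.34 in Fmr1-KO mice and 2.42% ± 0.81 in WT mice (SD, n = 8 each), so the means differed by less than the WT spread. The highest WT share was that of WT replicate 3 (3.80%, 95% Wilson interval 3.76% to 3.84%) and the lowest that of WT replicate 6 (1.29%, interval 1.26% to 1.32%). These intervals cover counting error only. Without both libraries, the WT share ran from 1.71% to 3.10%, with a mean of 2.38% ± 0.52 (SD, n = 6). The difference between the means, Fmr1-KO minus WT, was -0.342 percentage points over all libraries, -0.146 without WT replicate 3 alone, -0.505 without WT replicate 6 alone and -0.302 without both. Without WT replicate 5 alone, the difference was -0.445 percentage points. With only protein-coding and mitochondrial counts as the denominator, the difference was -0.523 percentage points over all libraries. In bulk tissue, fewer cells of a type and less RNA per cell cannot be told apart.

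Within the letter B, the share averaged 2.04% ± 0.45 in Fmr1-KO mice and 2.76% ± 1.06 in WT mice (SD, n = 4 each). Within the letter D, it averaged 2.12% ± 0.26 in Fmr1-KO mice and 2.08% ± 0.27 in WT mice (SD, n = 4 each). The 3 WT libraries with the highest shares, WT replicates 1, 3 and 8 at 2.87%, 3.80% and 3.10%, all carry the letter B. The Fmr1-KO libraries of the same letter stood at 1.66%, 1.78%, 2.06% and 2.66%, all below those 3 and above the share of WT replicate 6.

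The 2 rRNAs took 0.250% ± 0.073 of counts in Fmr1-KO mice and 0.258% ± 0.037 in WT mice (SD, n = 8 each), far less than the mRNAs. Whether the libraries were made from polyadenylated or rRNA-depleted RNA is not given in the sources used here, and mitochondrial rRNA levels depend on that step. The 22 tRNAs together took at most 0.00187% of any library's counts.

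**Figure D1:**
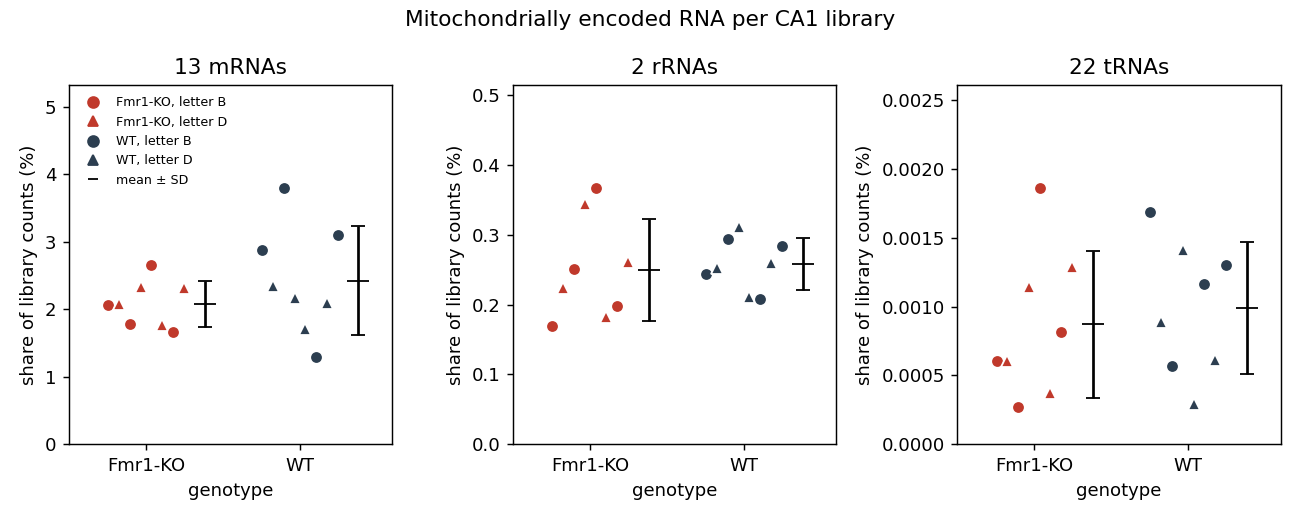
Share of each library's estimated counts (vertical axes, percent) on the 13 mRNAs, the 2 rRNAs and the 22 tRNAs of the mitochondrial genome, in Fmr1-KO mice (left) and WT mice (right). Circles are animals with the letter B, triangles those with the letter D, and bars show mean ± SD over 8 libraries. As shares of all counts, the WT mRNA values spread from 1.29% to 3.80% and enclose all Fmr1-KO values. The lowest is that of WT replicate 6, which had 58.4% of its counts on protein-coding transcripts.

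In the fit across all 11515 genes tested, 0 of the 16 members passed an adjusted p of 0.05 (edgeR quasi-likelihood test, Benjamini-Hochberg), where 0.0174% of all genes passed. DESeq2 also called 0 members. The 13 mRNAs had a median log2 fold change of -0.26 (Fmr1-KO over WT), with single values from -0.35 to -0.20. The median over all genes tested was -0.01, and 51.9% of all genes had a value below 0. At an unadjusted p under 0.05, 4 members were lower in Fmr1-KO mice (mt-Nd2, mt-Nd4, mt-Cytb and mt-Rnr2), where 4.28% of all genes were lower at that level. That count was 0 with library totals in place of TMM, 3 with DESeq2 and between 0 and 8 when each library was left out in turn. For every member the Fmr1-KO and WT ranges overlapped. Members lie on shared precursor RNAs, so they are not separate pieces of evidence.

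Complex I, the NADH dehydrogenase through which electrons enter the chain, has 7 mitochondrially encoded subunits, all of them in its membrane arm. mt-Nd4, a proton-pumping subunit, had 2103, 2436 and 2844 CPM (lowest, median, highest) in Fmr1-KO mice and 2261, 2586 and 5380 CPM in WT mice, with a log2 fold change of -0.30 ± 0.14 (SE; edgeR adjusted p = 0.624). The highest WT value is that of WT replicate 3, and the next WT value was 3217 CPM. mt-Nd2, another pumping subunit, had 1028, 1385 and 1601 CPM in Fmr1-KO mice and 1173, 1439.6 and 2469 CPM in WT mice, with a log2 fold change of -0.29 ± 0.14 (SE; edgeR adjusted p = 0.628). For both genes the medians of the genotypes lay closer together than the means did. mt-Nd5, the third pumping subunit of this kind, had 1079.7, 1197 and 1448 CPM in Fmr1-KO mice and 1025, 1249 and 2485 CPM in WT mice, with a log2 fold change of -0.20 ± 0.14.

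mt-Nd1, the subunit beside the quinone-binding channel, had 1338, 1687 and 2247 CPM in Fmr1-KO mice and 1414, 1782 and 2942 CPM in WT mice, with a log2 fold change of -0.22 ± 0.14. mt-Nd3 had 98.3, 156 and 264 CPM in Fmr1-KO mice and 128, 183 and 309 CPM in WT mice, with a log2 fold change of -0.33 ± 0.21. mt-Nd4l had 208, 249 and 340.2 CPM in Fmr1-KO mice and 221, 292 and 584 CPM in WT mice, with a log2 fold change of -0.26 ± 0.16. mt-Nd3 and mt-Nd4l are small membrane subunits. mt-Nd6, the only mRNA read from the other strand, had 195, 237 and 295 CPM in Fmr1-KO mice and 188, 281 and 485 CPM in WT mice, with a log2 fold change of -0.20 ± 0.16.

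Complex III, which passes electrons from ubiquinol to cytochrome c, has mt-Cytb as its only mitochondrially encoded subunit. mt-Cytb had 1429, 1888 and 2296 CPM in Fmr1-KO mice and 1548, 2041 and 3930 CPM in WT mice (the last value from WT replicate 3), with a log2 fold change of -0.33 ± 0.15 (SE; edgeR adjusted p = 0.628). Of the 8 WT libraries, those of WT replicates 1, 3 and 8 (2560.0, 3930 and 2811 CPM) lay above every Fmr1-KO library, and the other 5 lay within the Fmr1-KO range.

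Complex IV, the oxidase that reduces oxygen, takes its catalytic core from mt-Co1, mt-Co2 and mt-Co3. mt-Co1, which carries the heme and copper site where oxygen is reduced, was the member with the most counts, with 4559, 5838 and 6603 CPM in Fmr1-KO mice and 5044, 5909.6 and 11501 CPM in WT mice. Its log2 fold change was -0.26 ± 0.14, with medians in the genotypes that nearly met. mt-Co2, which receives electrons from cytochrome c, had 1403, 1615 and 2847 CPM in Fmr1-KO mice and 1609.8, 2042 and 3546 CPM in WT mice, with a log2 fold change of -0.35 ± 0.17, the lowest among the 13 mRNAs. mt-Co3, a structural core subunit, had 1214, 1571 and 2376 CPM in Fmr1-KO mice and 1202, 1812 and 2681 CPM in WT mice, with a log2 fold change of -0.22 ± 0.17. mt-Co2 and mt-Co3 also have nuclear copies, described further on, to which some reads of their shared sequence were assigned. With the copies' counts added, mt-Co2 was no longer the lowest.

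ATP synthase takes mt-Atp6, part of its proton channel, and mt-Atp8, a small stator subunit, from the mitochondrial genome. mt-Atp6 had 1636, 1986 and 2801 CPM in Fmr1-KO mice and 1659, 2206 and 3757 CPM in WT mice, with a log2 fold change of -0.27 ± 0.15. mt-Atp8 had 52.5, 71.6 and 101 CPM in Fmr1-KO mice and 50.1, 82.8 and 175 CPM in WT mice, with a log2 fold change of -0.24 ± 0.19. Both proteins are translated from the same mature mRNA, in overlapping reading frames. The shared stretch is shown because reads inside it belong to both annotated transcripts, and capitals mark its 43 bases (GRCm38 chrM:7915-7981, plus strand, 5′ to 3′).
mt-Atp8/mt-Atp6: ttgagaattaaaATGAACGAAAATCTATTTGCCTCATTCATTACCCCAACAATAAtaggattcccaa

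mt-Nd4l and mt-Nd4 likewise share 7 bases of the same strand, and mt-Nd5 and mt-Nd6 share 14 bases of opposite strands. Whether reads were counted by strand is not given in the sources used here, so reads of the opposite strands over mt-Nd5 and mt-Nd6, inside the 14 bases or beside them, cannot be told apart.

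**Figure D2:**
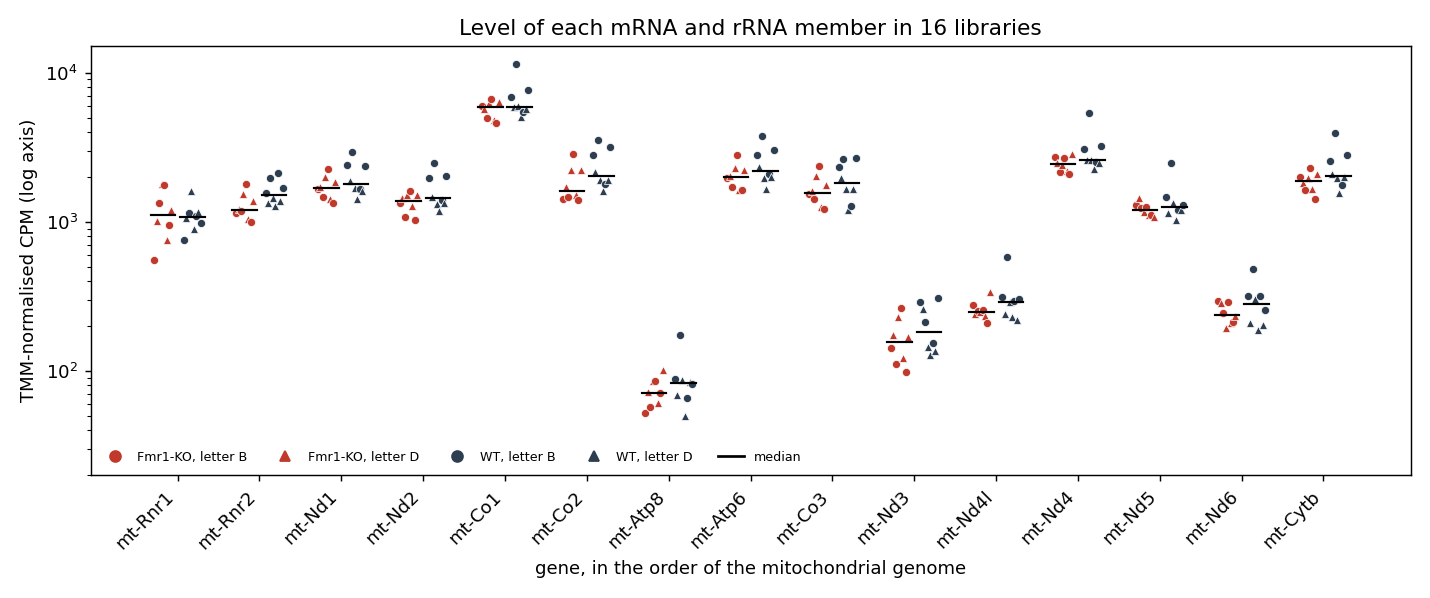
TMM-normalised CPM (vertical log axis) of the 13 mRNAs and 2 rRNAs in genome order, Fmr1-KO libraries left of WT libraries for each gene, with circles for the letter B, triangles for the letter D and lines at the medians. The ranges of the genotypes overlap for all 15 genes, and WT replicate 3 is the topmost WT circle for most mRNAs, with 11501 CPM for mt-Co1.

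The fitted genotype difference was not the same in the animals of each letter. In letter B animals all 13 mRNAs had a fold change below 0, beside 50.8% of all genes, with a median log2 fold change of -0.55, and 11 of the 16 members were lower at an unadjusted p under 0.05, where 4.07% of all genes were. None passed the adjustment in the edgeR fit (lowest adjusted p = 0.635), and 0 of 11738 genes were called in that subset. In letter D animals the median was 0.04, 1 mRNA had a fold change below 0, beside 49.6% of all genes, the other 12 lay above it, and 0 of the 16 members had an unadjusted p under 0.05, where 4.49% of all genes did.

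mt-Nd2 had the lowest p of the members within letter B. There it averaged 1258 ± 264 CPM in Fmr1-KO mice and 1964 ± 436 CPM in WT mice, with a log2 fold change of -0.64 ± 0.19. In letter D animals it averaged 1433 ± 111 CPM in Fmr1-KO mice and 1326 ± 124 CPM in WT mice, with a log2 fold change of 0.11 ± 0.09. The Fmr1-KO means of the letters lay closer together than the WT means. A test of the difference between letters (genotype by letter interaction, edgeR, chosen after the data were seen) gave mt-Nd2 a difference in log2 fold change of -0.76 with an unadjusted p of 0.00214 and an adjusted p of 0.907. In that test 9 members were lower at an unadjusted p under 0.05, where 2.8% of all genes were, and 0 members and 0 of 11515 genes passed the adjustment.

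WT replicates 3 and 6 both belong to letter B, and the pooled median moved most when WT replicate 3 was left out. Without both, the median of the 13 mRNAs was -0.14, with values from -0.37 to -0.01, and 0 members had an unadjusted p under 0.05, where 7.32% of all genes did. mt-Nd4 then had -0.14, mt-Nd1 -0.14, mt-Co1 -0.13, mt-Atp6 -0.17 and mt-Cytb -0.21. mt-Nd5, mt-Nd6, mt-Nd4l and mt-Atp8 had -0.04, -0.01, -0.05 and -0.06, while mt-Nd2 (-0.20), mt-Co2 (-0.29) and mt-Co3 (-0.21) moved by less than these. mt-Nd3 moved away from 0, from -0.33 to -0.37. Without WT replicate 3 alone the median was -0.13. Within letter B, though, leaving out both moved the median only to -0.50, with WT replicates 1 and 8 remaining, and that fit sets 4 Fmr1-KO libraries against 2 WT libraries. In the interaction test without both, 10 members were lower at an unadjusted p under 0.05, where 1.87% of all genes were, and the lowest adjusted p among members was 0.896.

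WT replicate 6 had the lowest share of mitochondrial mRNA but not the lowest WT level in CPM of any mRNA or rRNA, and its TMM factor was 0.672, against 0.967 to 1.07 in the other 15 libraries. With library totals in place of TMM, the mRNA median was -0.21, against 0.02 over all genes. On log2(TPM + 1) of the deposited values, all 13 mRNAs had a fitted difference above 0, with a median of 0.38, and the median over all genes was 0.55. Relative to all genes, the mRNA median was therefore -0.17 on that scale. All 13 mRNAs had their lowest TPM in WT replicate 6, where mt-Co1 stood at 805 TPM. mt-Co1 had 3735 to 10966 TPM in the other WT libraries and 6408 to 9284 TPM in Fmr1-KO libraries. The part of WT replicate 6 in the TPM differences was not tested.

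**Figure D3:**
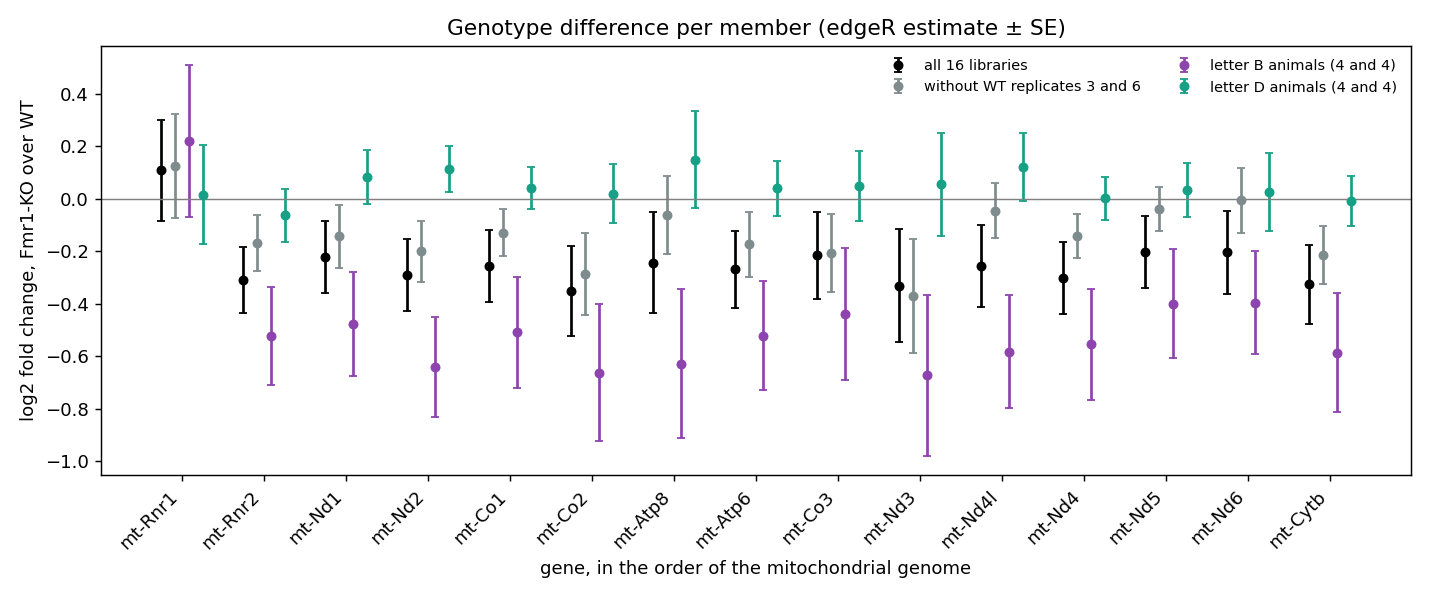
Log2 fold change of each mRNA and rRNA, Fmr1-KO over WT (vertical axis), as the edgeR estimate ± SE, for all 16 libraries, without WT replicates 3 and 6, and for the animals of each letter. Letter B estimates (median of the mRNAs -0.55) lie below those of letter D (0.04) for all 13 mRNAs and mt-Rnr2, while mt-Rnr1 stays at or above 0 in each subset drawn.

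The rRNAs are the structural RNAs of the mitochondrial ribosome, mt-Rnr1 (12S) of the small and mt-Rnr2 (16S) of the large subunit, and they lie next to each other, separated by mt-Tv. mt-Rnr1 had 551, 1103 and 1799 CPM (lowest, median, highest) in Fmr1-KO mice and 751, 1069 and 1608 CPM in WT mice, with a log2 fold change of 0.11 ± 0.19 (SE; edgeR adjusted p = 0.918). mt-Rnr2 had 1003, 1201 and 1782 CPM in Fmr1-KO mice and 1267, 1504 and 2133 CPM in WT mice, with a log2 fold change of -0.31 ± 0.13 (SE; edgeR adjusted p = 0.593), and -0.17 ± 0.11 without WT replicates 3 and 6 (unadjusted p = 0.131 in edgeR). Thus the fitted values of the rRNAs lay on opposite sides of 0, and neither passed the test.

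The ratio of the rRNAs needs no scaling between libraries. mt-Rnr2 over mt-Rnr1 was 0.859, 1.10 and 2.08 (lowest, median, highest) in Fmr1-KO mice and 0.899, 1.56 and 2.08 in WT mice. Its mean log2 difference was -0.36 (Fmr1-KO minus WT; two-sided exact permutation test, p = 0.104, 0.207 after Benjamini-Hochberg adjustment over 2 ratios). The single Fmr1-KO library above 1.37 was Fmr1-KO replicate 1. Without it the difference was -0.48 (exact permutation p = 0.0218), and without WT replicate 4, the lowest WT library, it was -0.46 (exact permutation p = 0.0345). These are the libraries that lie most against the difference in their genotype, and leaving out each of the other 14 gave exact permutation p from 0.0842 to 0.186. Without WT replicates 3 and 6 the difference was -0.25 (exact permutation p = 0.278).

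In letter B animals the ratio was 0.884, 1.02, 1.05 and 2.08 in Fmr1-KO mice and 1.72, 1.73, 1.96 and 2.08 in WT mice. In letter D animals it was 0.859, 1.15, 1.21 and 1.37 in Fmr1-KO mice and 0.899, 1.18, 1.28 and 1.41 in WT mice. All 4 WT letter B libraries thus lay above all 4 WT letter D libraries. The mean log2 difference was -0.66 in letter B (exact permutation p = 0.143) and -0.05 in letter D (exact permutation p = 0.714).

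mt-Nd6 and mt-Nd5 lie side by side on opposite strands. With the strand setting unknown, reads of the opposite strand may be among the counts of either, so their ratio need not compare the strands. It averaged 0.202 ± 0.022 in Fmr1-KO mice and 0.204 ± 0.031 in WT mice (SD, n = 8 each), a mean log2 difference of -0.01 (two-sided exact permutation test, p = 0.913). The difference was smaller than the spread in either genotype, and it was 0.04 without WT replicates 3 and 6.

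**Figure D4:**
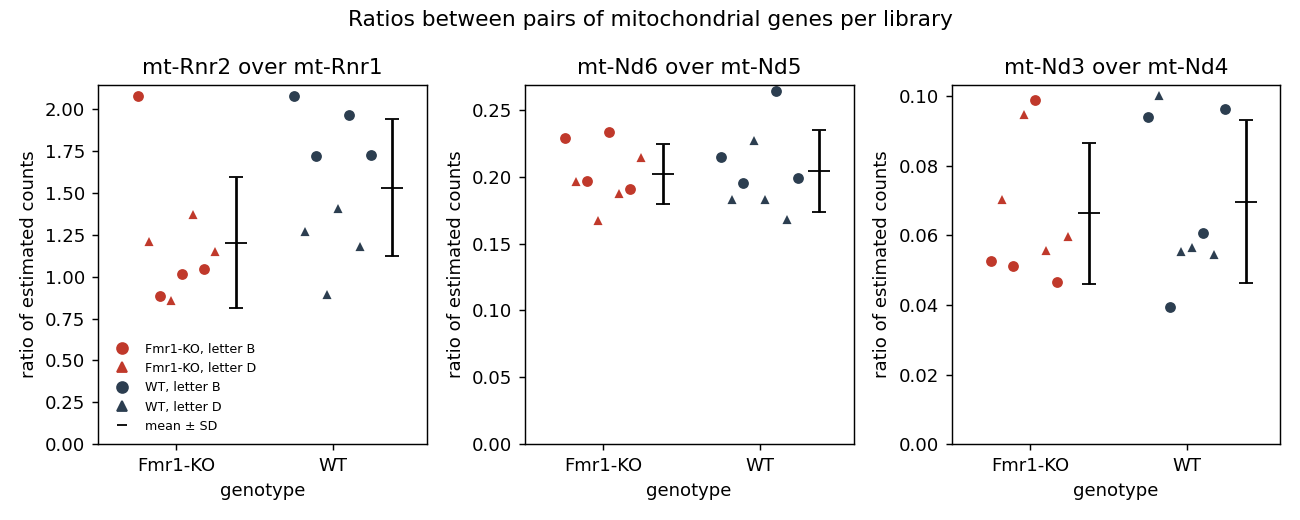
Ratios of estimated counts (vertical axes) per library for mt-Rnr2 over mt-Rnr1, mt-Nd6 over mt-Nd5 and mt-Nd3 over mt-Nd4, Fmr1-KO left and WT right, circles for the letter B and triangles for the letter D, with mean ± SD over 8 libraries. In the first panel the 4 WT circles sit between 1.72 and 2.08, above the WT triangles at 0.899 to 1.41, while in the second the genotypes average 0.202 and 0.204.

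Within the mitochondrial mRNA pool, mt-Co1 made up 27.6% ± 0.84 of mitochondrial mRNA counts in Fmr1-KO mice and 27.3% ± 1.28 in WT mice (SD, n = 8 each). Over all 16 libraries the coefficient of variation of a gene's part was 3.87% for mt-Co1, 4.19% for mt-Cytb, 4.59% for mt-Nd1 and 4.90% for mt-Atp6. It was largest for mt-Nd3 (24.3%), mt-Nd6 (18.3%) and mt-Atp8 (16.7%), which averaged 443, 591 and 181 counts per library. Genes with more counts also varied, with 13.6% for mt-Nd5, 11.4% for mt-Co2 and 11.5% for mt-Co3. Their means were 2941, 4921 and 4234 counts. Reads of mt-Co2 and mt-Co3 assigned to nuclear copies, described further on, are not in these counts. They reached 22.7% for mt-Co2 in Fmr1-KO replicate 1 and 22.8% for mt-Co3 in WT replicate 6. Their part in this variation was not tested.

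The part of mt-Nd3 did not vary evenly. mt-Nd3 over mt-Nd4, its downstream neighbour beyond mt-Nd4l, was 0.0947 and 0.0989 in Fmr1-KO replicates 4 and 5, against 0.0467 to 0.0705 in the other 6 Fmr1-KO libraries. It was 0.0940, 0.1001 and 0.0962 in WT replicates 1, 2 and 8, against 0.0395 to 0.0607 in the other 5 WT libraries. The same 5 libraries also had the 5 highest ratios of mt-Co3 over mt-Co1, with 0.324 and 0.360 in those Fmr1-KO libraries and 0.336, 0.336 and 0.348 in those WT libraries. Both genotypes and both letters are among them.

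Among the mRNAs and rRNAs, per unit of length, in TPM, mt-Atp6 (median over 16 libraries 7333 TPM), mt-Co1 (7251 TPM) and mt-Co2 (6443 TPM) stood highest. They were followed by mt-Nd4l (5009.6 TPM), mt-Co3 (4794 TPM), mt-Atp8 (3906 TPM), mt-Nd1 (3879 TPM), mt-Nd4 (3687 TPM), mt-Cytb (3449 TPM) and mt-Nd2 (2844 TPM). mt-Rnr1 (2406 TPM), mt-Nd3 (1909 TPM), mt-Rnr2 (1564 TPM), mt-Nd6 (1424 TPM) and mt-Nd5 (1324 TPM) were lowest of these 15. Some neighbours in this order did not differ beyond their spread: mt-Atp6 exceeded mt-Co1 in 11 of 16 libraries, mt-Co1 exceeded mt-Co2 in 10, mt-Nd4l exceeded mt-Co3 in 9 and mt-Atp8 exceeded mt-Nd1 in 5. Others kept their order: mt-Cytb exceeded mt-Nd2 in 16 of 16 libraries, and mt-Co2 exceeded mt-Nd4l and mt-Co3 exceeded mt-Atp8 in 15 each. The TPM of mt-Atp8 rests on an effective length of only 30 to 35 bases, because its annotated transcript of 204 bases is shorter than the mean fragment. Its place in the order is uncertain for that reason. The effective length of mt-Nd4l was also short, at 84 to 93 bases.

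Of the 22 tRNAs, mt-Tp, the proline tRNA, held 311 summed counts over 16 libraries, and none of the other 21 held more than 8. mt-Tp had 2.35, 6.52 and 15.1 CPM (lowest, median, highest) in Fmr1-KO mice and 0, 6.82 and 14.7 CPM in WT mice, with a log2 fold change of -0.06 ± 0.47 (SE; edgeR adjusted p = 0.980), and -0.29 ± 0.41 without WT replicates 3 and 6. The library at 0 was WT replicate 3, where a count of 0 allows up to 3.41 CPM before TMM scaling. Mature tRNAs are short and heavily structured, and ordinary RNA-seq captures few of them. The mt-Tp gene is shown because it is the tRNA member with reads to test (GRCm38 chrM:15356-15422, minus strand, 5′ to 3′).
mt-Tp: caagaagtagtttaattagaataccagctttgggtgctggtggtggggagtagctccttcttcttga

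Stretches of mitochondrial DNA have been copied into nuclear chromosomes during evolution, and reads of sequence that gene and copy share can be assigned to either. A search of the GENCODE M21 transcripts for alignments of at least 100 bases at 95% identity or more found 10 copy transcripts for 8 of the mRNA genes. Of these, 7 lie on chromosome 1 between 24611535 and 24616197 and 3 on chromosome 2 (GRCm38). Gm28661 matched mt-Co2 at 681 of 681 aligned bases, and Gm28437 matched mt-Co3 at 783 of 783, so a read inside either cannot be placed by sequence. Gm10925 (mt-Atp6), Gm10222 (mt-Nd4l) and Gm28439 (mt-Nd4) also matched without a mismatch.

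A pair of copies on chromosome 1 differed from the gene by 1 base over the aligned stretch, which the windows below show. That stretch was 345 bases for Gm28438 and 483 bases for Gm29216, which aligned only to bases 1063 to 1545 of mt-Co1. Capitals mark the differing base: T3C for mt-Nd3 against Gm28438 and A1066T for mt-Co1 against Gm29216, with the mitochondrial base first and positions counted from 1 at the start of the mitochondrial transcript. The windows are GRCm38 chrM:9459-9486 (plus) against chr1:24613092-24613119 (minus), and chrM:6390-6418 (plus) against chr1:24616160-24616188 (minus).
mt-Nd3: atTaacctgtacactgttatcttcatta
Gm28438: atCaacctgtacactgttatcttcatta
mt-Co1: ggaAttgttttatccaactcatcccttga
Gm29216: ggaTttgttttatccaactcatcccttga

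The part of the reads assigned to the copies was uneven between libraries. Among counts on mt-Co2 and its copies, the copies held 22.7% in Fmr1-KO replicate 1 and 0.0287% to 4.13% in the other 7 Fmr1-KO libraries. They held 8.75% in WT replicate 6, 7.78% in WT replicate 2 and 0.0351% to 0.848% in the other 6 WT libraries. For mt-Co3, the copy held at most 0.543% in any Fmr1-KO library, against 22.8%, 6.13% and 5.05% in WT replicates 6, 3 and 5 and at most 0.0236% in the other 5 WT libraries. For mt-Co1 the copies held at most 2.76%, in Fmr1-KO replicate 5.

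Adding the copies' counts back moved mt-Co2 to a log2 fold change of -0.321 and mt-Co3 to -0.27. The median of the 13 mRNAs moved to -0.27. mt-Nd3 (-0.328) and mt-Cytb (-0.326) then lay below mt-Co2. No member passed the test in that fit either. Gm28661 and Gm28437 are identical to mt-Co2 and mt-Co3 over the aligned bases, so their own counts are uncertain.

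**Figure D5:**
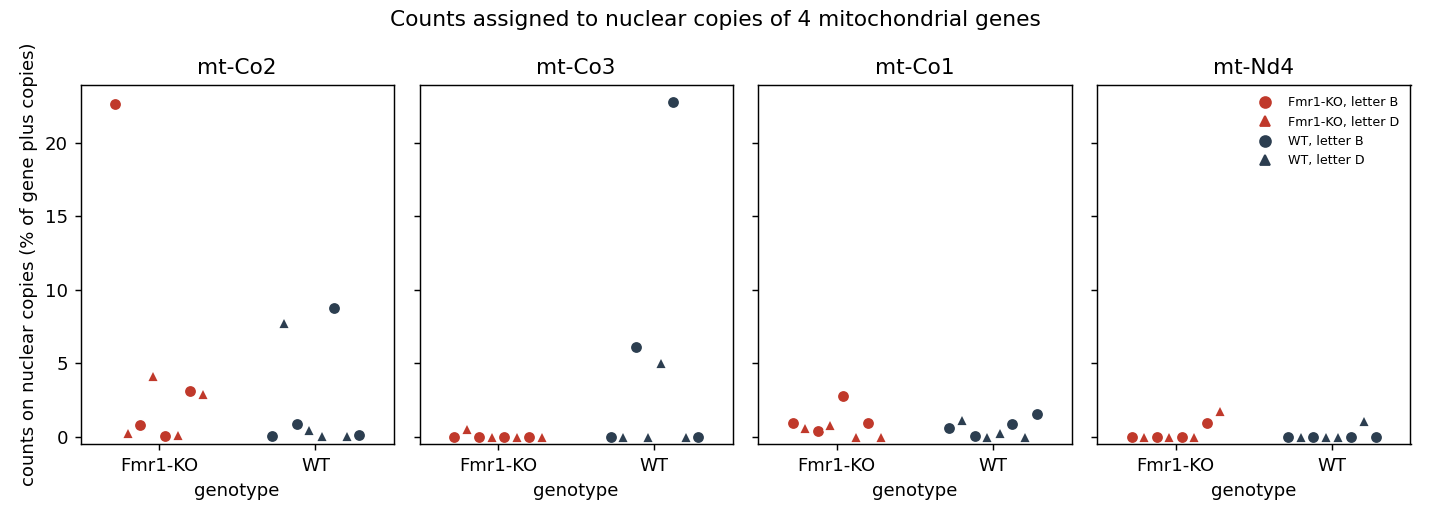
Counts assigned to nuclear copies as a percent of the counts on a mitochondrial gene plus its copies (vertical axis), for mt-Co2, mt-Co3, mt-Co1 and mt-Nd4, Fmr1-KO left and WT right, circles for the letter B and triangles for the letter D. Single libraries stand out, with 22.7% for mt-Co2 in Fmr1-KO replicate 1 and 22.8% for mt-Co3 in WT replicate 6, while most points lie near 0.

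The nuclear genes that serve the mitochondrial genome were read from the same fit, and no listed gene was called. Nuclear subunits of the complexes that mitochondrial genes join were mostly below 0: 29 of 36 for complex I (median log2 fold change -0.17), 8 of 9 for complex III (-0.19), 11 of 11 for complex IV (-0.34) and 13 of 15 for ATP synthase (-0.18), beside 51.9% of all genes. Complex II, which has no mitochondrially encoded subunit, had 3 of 4 below 0 and a median of -0.06. Without WT replicates 3 and 6 the ATP synthase median was -0.30 and the complex II median -0.11. Cox7a2, a small complex IV subunit, had a log2 fold change of -0.58 ± 0.23 (SE; edgeR adjusted p = 0.590), and Atp5e, the epsilon subunit of ATP synthase, had -0.65 ± 0.24 (SE; edgeR adjusted p = 0.581). By letter, the complex IV list had a median of -0.43 in letter B and -0.20 in letter D, and the complex I list -0.28 in letter B and -0.08 in letter D.

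Among genes that transcribe or maintain the mitochondrial DNA, 8 of 12 tested were below 0, with a median of -0.11, and -0.01 without WT replicates 3 and 6. Tfam, which packages the mitochondrial DNA and starts transcription, had a log2 fold change of -0.24 ± 0.27, and -0.05 without those libraries. Rnaseh1 had -0.55 ± 0.36 and Ssbp1 -0.44 ± 0.48, and without those libraries -0.66 and -0.56. Both had low levels, with medians of 5.05 and 4.84 CPM in Fmr1-KO mice and 6.57 and 6.73 CPM in WT mice. Genes of mitochondrial RNA processing and decay had 14 of 28 below 0 and a median of -0.02. Among them Pde12, which removes poly(A) tails from mitochondrial mRNAs, had 0.56 ± 0.26 (SE; edgeR adjusted p = 0.628), and Lrpprc, which stabilises these mRNAs, had 0.24 ± 0.20, and 0.09 without WT replicates 3 and 6. Mitochondrial ribosomal proteins had 49 of 76 below 0 (median -0.10), genes of mitochondrial structure and import 16 of 26 (median -0.03) and biogenesis regulators 5 of 11 (median 0.01, and 0.03 without WT replicates 3 and 6).

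The mitochondrial aminoacyl-tRNA synthetases, which charge the mitochondrial tRNAs, had 12 of 22 below 0 and a median of -0.05, and -0.02 without WT replicates 3 and 6. Lars2, the leucine enzyme of this group, stood apart in size, with 485, 622 and 2041 CPM (lowest, median, highest) in Fmr1-KO mice and 438, 1330.5 and 22530 CPM in WT mice. Without WT replicates 3 and 6 the WT values were 438, 519.6 and 7137 CPM, with a median below that of the Fmr1-KO mice. Its log2 fold change was -2.47 ± 0.69 (SE; edgeR adjusted p = 0.515), and -1.18 without WT replicates 3 and 6. The libraries with the most Lars2, WT replicates 6 and 5 with 1.45% and 0.695% of all counts, also had the most Rn18s-rs5, an 18S rRNA sequence, with 3.5% and 1.86%. The part of rRNA in the Lars2 values was not tested. With Tars2 and Aars2, 3 of the 22 synthetases were lower at an unadjusted p under 0.05 (edgeR), beside 4.28% of all genes. Tars2 had a log2 fold change of -0.61 ± 0.25 (SE; edgeR adjusted p = 0.590), and -0.48 without WT replicates 3 and 6. Aars2 had -0.38 ± 0.15 (SE; edgeR adjusted p = 0.596), and -0.37 without those libraries.

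Markers of other cell types were looked at for the same libraries, with no marker called. All 8 astrocyte markers had a fold change below 0 (median log2 -0.35), and their sum ran from 1586 to 2530.5 CPM in Fmr1-KO mice (median 2229 CPM) and from 1778 to 5374 CPM in WT mice (median 1961 CPM). Without WT replicates 3 and 6 the sum averaged 2109 ± 342 CPM in Fmr1-KO mice (SD, n = 8) and 2039 ± 246 CPM in WT mice (SD, n = 6), where it reached 2440 CPM at most. Markers below 0 also numbered 7 of 7 tested for oligodendrocytes (median -0.37; sums of 228 to 448 CPM in Fmr1-KO mice and 249.6 to 671 CPM in WT mice), for microglia (median -0.31; 118 to 242 CPM in Fmr1-KO mice and 154 to 342 CPM in WT mice) and for endothelium and pericytes (median -0.50; 61.3 to 147 CPM in Fmr1-KO mice and 86.7 to 367 CPM in WT mice). Without WT replicates 3 and 6 these medians were -0.10 for astrocytes, -0.38 for oligodendrocytes, -0.16 for microglia and -0.30 for endothelium and pericytes. The highest WT sum was then 204 CPM for microglia and 157 CPM for endothelium and pericytes. The astrocyte, microglial and endothelial lists moved toward 0 when the same 2 libraries were left out, but the oligodendrocyte list did not. The median of the mitochondrial mRNAs moved from -0.26 to -0.14, but mt-Nd3 did not move toward 0. Within letter B that median was still -0.50 without these libraries. Whether the shifts of the markers and the mRNAs are related was not tested. Nuclear subunit lists moved away from 0 instead, from -0.17 to -0.22 for complex I, from -0.19 to -0.25 for complex III and from -0.18 to -0.30 for ATP synthase.

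CA1 pyramidal markers had 6 of 8 below 0 (median -0.08) and interneuron markers 6 of 8 (median -0.27, and -0.07 without WT replicates 3 and 6; 185 to 386 CPM in Fmr1-KO mice and 219 to 393 CPM in WT mice). Dentate granule cell markers had 2 of 3 tested below 0 (median -0.16, and 0.14 without WT replicates 3 and 6; 138 to 247 CPM in Fmr1-KO mice and 152 to 233 CPM in WT mice). CA3 and CA2 markers had 3 of 4 tested below 0 (median -0.28; 229 to 334 CPM in Fmr1-KO mice and 265 to 369 CPM in WT mice). Choroid plexus and ependymal markers summed to 63.8 to 103 CPM in Fmr1-KO mice and 30.0 to 111 CPM in WT mice, with Folr1 and Tmem212 at 0 in all libraries and 1 marker tested (log2 0.18). Cytosolic rRNA-like transcripts had 5 of 5 tested below 0 (median -1.73, and -0.58 without WT replicates 3 and 6; 1279.9 to 6839 CPM in Fmr1-KO mice and 1026 to 63058 CPM in WT mice, or up to 19996 CPM without those libraries). The part of cell composition and of RNA quality in the mitochondrial values was not tested.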

How the data were processed

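Total RNA of CA1 was extracted with a Maxwell 16 LEV kit, and libraries were read on the Illumina HiSeq platform, per the labels' protocols. FastQC, cutadapt, kallisto and DESeq2 are listed in the submitters' processing notes. Their versions, the transcript index, the genome build, the strand setting and the library type are not given in the labels or file headers. The authors deposited, per library, an estimated count and a TPM value for each of 111706 transcripts, per the file headers. An estimated count can be fractional where transcripts share sequence, and the deposited TPM values hold no depth.

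Estimated counts were summed per symbol, rounded and tested with edgeR 4.0.16 in R 4.3.3 (quasi-likelihood test, TMM, filterByExpr with a minimum count of 10, no covariate, Benjamini-Hochberg adjustment, threshold 0.05). Of the symbols, 83 cover more than 1 gene identifier. Levels are TMM-normalised CPM. The SE is the absolute log2 fold change over the root of the F statistic. Ratios of estimated counts were tested with exact two-sided permutation over libraries in SciPy 1.17.1 (smallest p possible with 8 against 8, 0.000155). Alternatives used DESeq2 1.42.0, limma 3.58.1 on log2(TPM + 1) and log2(TPM + 0.1), other scalings, filters and subsets. Copies were sought with blastn 2.17.0 among 102854 GENCODE M21 transcripts (GRCm38) that matched a deposited transcript in identifier and length; positions and sequences come from that release. The count test was tested on simulated data of 11515 genes. It recovered 30.8% of 1.5-fold, 69.8% of 2-fold and 93.5% of 4-fold changes, with 3 false calls. A member that was not called may therefore still differ by 1.5-fold.

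The members, gene lists, marker lists and tests were chosen with earlier results of these data known. Every mRNA and rRNA member is described, tRNAs with at least 10 summed counts, the copies with the most counts, and, from some of the nuclear lists, genes among the 3 tested with the smallest p. Replicate numbers follow accession order and pair nothing.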

Additional observations from a re-analysis of the deposited data

Results flagged for a closer look

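In 42 checks of 8 libraries each, 7 had a library far from the others of its genotype by Dixon's criterion, which chance alone meets in about 1 group in 20. The ratio of mt-Rnr2 over mt-Rnr1 in Fmr1-KO replicate 1 was 2.08, against 0.859 to 1.37 in the other 7 Fmr1-KO libraries. The other 6 were all in WT replicate 3, the library of 878484 counts. There mt-Co1 stood at 11501 CPM, against 5044 to 7701 CPM in the other 7 WT libraries. mt-Nd4 stood at 5380.2 CPM against 2261 to 3217 CPM, mt-Nd5 at 2485 CPM against 1025 to 1469 CPM, and mt-Nd4l at 584 CPM against 221 to 313 CPM. mt-Nd6 stood at 485 CPM against 188 to 316 CPM, and mt-Atp8 at 175 CPM against 50.1 to 88.2 CPM. The members share precursor RNAs and this library, so the 6 values are not separate events.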

How the results depend on the processing

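No member passed the test under any alternative run. Of 620 signed values under alternatives, with the TPM fits taken relative to the median of all genes, 35 had the opposite sign, 31 of them log2 differences and 4 of them differences in shares of counts, which have no test. Without that centring, all 13 mRNAs were above 0 in both TPM fits. The share differences that changed sign were 0.0408 percentage points for mRNAs in letter D, 5.44e-05 for tRNAs in letter D, and 0.00123 and 0.00306 for rRNAs when 1 library was left out. Over all genes, edgeR called 2; DESeq2 called 8, the fit with no filter 5, and 0 were called by both TPM fits, in letter B, in letter B without WT replicates 3 and 6, and by the interaction term. The median of the 13 mRNAs was -0.55 in letter B, -0.50 there without WT replicates 3 and 6, and 0.0404 in letter D. Leaving out each library in turn gave -0.33 to -0.13 for that median, -0.48 to -0.29 for log2 mt-Rnr2 over mt-Rnr1, -0.0487 to 0.0439 for log2 mt-Nd6 over mt-Nd5, -0.28 to 0.15 for mt-Tp and -0.00239 to 0.22 for mt-Rnr1. The mt-Nd6 over mt-Nd5 difference also changed sign without WT replicates 3 and 6 (0.0441), in letter D (0.0120) and in letter B without those libraries (0.0341). mt-Tp, with few counts, was at 0.94 and 1.28 relative to all genes on log2(TPM + 1) and log2(TPM + 0.1). In letter D the log2 fold changes that turned positive were those of mt-Nd1 (0.0824), mt-Nd2 (0.11), mt-Nd3 (0.0546), mt-Nd4 (0.0025), mt-Nd4l (0.12), mt-Nd5 (0.0332), mt-Nd6 (0.0264), mt-Co1 (0.0404), mt-Co2 (0.0191), mt-Co3 (0.0483), mt-Atp6 (0.0402), mt-Atp8 (0.15) and mt-Tp (0.0178). The cause of these changes was not tested. No paired analysis was possible because the genotypes share no label numbers and the replicate numbers follow accession order.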

Other observations

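The ratio of mt-Atp8 over mt-Atp6 counts went with the mean fragment length estimated from the deposited effective lengths, which ran from 223 to 237 bases in Fmr1-KO libraries and 225 to 237 bases in WT libraries. Over 16 libraries Pearson's r was -0.73 (permutation p = 0.00182, adjusted 0.0109) and Spearman's rho -0.78 (permutation p = 6.0e-04, adjusted 0.0036). The adjustment covers 6 ratios computed, and the relation was chosen after the values were seen. Without the 2 libraries farthest from the median length r was -0.63, and it was -0.90 within Fmr1-KO mice and -0.61 within WT mice. mt-Nd4l over mt-Nd4, the other overlapping pair on the same strand, had r = -0.48 (permutation p = 0.0644, adjusted 0.193; Spearman's rho -0.47). mt-Nd3 over mt-Nd4 had r = 0.43 (permutation p = 0.0976, adjusted 0.193), and 0.56 without the 2 libraries farthest from the median length. mt-Co3 over mt-Co1 had r = 0.39 (permutation p = 0.128, adjusted 0.193), and 0.54 without those libraries. mt-Rnr2 over mt-Rnr1 had r = 0.23 and mt-Nd6 over mt-Nd5 r = -0.10.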
